A study of Homo sapiens with 6 samples.

Results

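The unfolded protein response and the integrated stress response were followed through 33 named genes in paclitaxel-treated ovarian cancer cells. The genes were chosen by symbol and all 33 were found among the 59008 gene symbols of the expression table. Each of the 33 had an average level of at least 1 TPM over the 6 libraries (transcripts per 1000000, corrected for transcript length), as did 14988 genes in all. They comprised 3 genes of the sensing branches (ERN1, ATF6 and XBP1), 11 chaperones of the endoplasmic reticulum (ER), 3 disulfide isomerases, 4 genes of ER-associated degradation, 4 transcription factors of the integrated stress response (ISR), 4 enzymes of amino acid metabolism and 4 ISR effectors.

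Bulk RNA-seq covered Hey and SKOV3, 2 established lines of human ovarian cancer, each in 3 states. Parental cells were untreated. Polyploid giant cancer cells (PGCCs) arose after a 16 h exposure to 500 nM of the microtubule-stabilizing drug paclitaxel. Both PGCC libraries are labelled as 3 days of recovery, but the title of the SKOV3 PGCC library gives day 7, so its time is uncertain. Daughter cells received the same exposure and recovered for 30 days, and each daughter library is titled as clone 1, that is, 1 clone per line. There was 1 library per condition, so no value below carries a replicate error and no fold change was checked by a replicate.

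Keratins 7, 8 and 18 were abundant in all libraries and PAX8 was expressed throughout, but other epithelial and ovarian cancer markers were not. CDH1 was at 0 TPM in Hey parental cells and PGCCs and at 0.0283 TPM in Hey daughter cells. KRT19 and EPCAM were at 2.475 and 0.957 TPM in Hey parental cells and at 292 and 68.8 TPM in SKOV3 parental cells. From parental to daughter cells, MSLN went from 21.5 to 0.386 TPM in Hey and from 33.1 to 1.85 TPM in SKOV3. WT1 reached at most 4.1 TPM and MUC16 at most 1.585 TPM in any library. The 6 fibroblast markers summed to between 0.121 and 3.25 TPM in Hey and between 12.0 and 27.3 TPM in SKOV3, with COL3A1 at most 0.079 TPM and COL1A1 at 16.3 TPM in SKOV3 daughter cells. The 5 blood and endothelial markers summed to between 45.7 and 69.7 TPM in Hey and between 1.59 and 20.6 TPM in SKOV3, nearly all of it CD68 outside SKOV3 daughter cells, while CD3E was at 0 TPM in every library. Mitochondrial transcripts made up from 2.64% to 14.8% of the TPM total of a library, and the 33 genes made up from 0.509% to 0.681%. The proliferation markers MKI67, TOP2A, CCNB1, CDK1 and BUB1 were all at least 2-fold lower in Hey PGCCs than in parental cells, and 3 of the 5 were so in SKOV3 PGCCs. The part of all these markers in the results below was not tested. In bulk RNA a smaller share of expressing cells and less RNA per cell cannot be told apart.

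The unfolded protein response is set off when unfolded proteins accumulate in the ER. IRE1α, the product of ERN1, splices XBP1 mRNA, ATF6 is cleaved to a free transcription factor, and PERK, the product of EIF2AK3, phosphorylates eIF2α. Together they raise chaperones, disulfide isomerases and the degradation machinery. The ISR shares the eIF2α step with kinases that sense amino acid lack, heme lack and viral RNA, and it works through ATF4, which drives genes for amino acid synthesis and transport and the factor CHOP, the product of DDIT3.

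Both programs act through short promoter elements, and these are shown for genes whose levels are described below. The elements were searched on both strands from 250 bases before to 50 bases after each transcription start, in RefSeq promoters of GRCh38.p14. An entry was found for 32 of the 33 genes, all but PDIA3. The ER stress element ERSE (CCAAT, 9 bases, CCACG) occurred in 7 of the 33 genes and in 0.0769% of 35116 promoter entries. Its bearers were HSPA5, HSP90B1, CALR, CANX, CRELD2, PDIA6 and XBP1. The related ERSE-II (ATTGG, 1 base, CCACG) occurred in HERPUD1, HYOU1 and SDF2L1, and in 0.0541% of entries. No gene held both ERSE and ERSE-II. The element bound by ATF4 complexes (CARE, TGATG, any base, AA) occurred in ASNS, CEBPG, CHAC1 and HERPUD1, and in 3.62% of entries. Below, 30 bases around 1 match per gene are given 5′ to 3′ on the gene's strand, with the matching letters in capitals. Matches on the opposite strand read as the reverse complement.

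HSPA5 (chr9:125241386-125241415, minus strand): ccttcaCCAATCGGCGGCCTCCACGacggg
HSP90B1 (chr12:103930210-103930239, plus strand): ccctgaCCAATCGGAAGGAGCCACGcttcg
PDIA6 (chr2:10812848-10812877, minus strand): cccggaCCAATGAGCCGCAGCCACGgcttg
XBP1 (chr22:28800598-28800627, minus strand): cgctggCCAATCGCGGAGGGCCACGaccgt
CALR (chr19:12938378-12938407, plus strand): cccacgCGTGGTCGACCATCATTGGtcggt
HERPUD1 (chr16:56932015-56932044, plus strand): ccggacgccgATTGGGCCACGttgggagag
SDF2L1 (chr22:21642104-21642133, plus strand): tcctcggaagCGTGGACCAATcaaaaccct
ASNS (chr7:97872458-97872487, minus strand): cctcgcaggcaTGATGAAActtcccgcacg
CEBPG (chr19:33374060-33374089, plus strand): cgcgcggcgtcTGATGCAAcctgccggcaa
CHAC1 (chr15:40953251-40953280, plus strand): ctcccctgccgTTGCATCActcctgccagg

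The match in ASNS, which encodes asparagine synthetase, lies 68 to 61 bases before the start, and that in CEBPG 42 to 35 bases before it. The match in HSPA5, which encodes the chaperone BiP, lies 66 to 48 bases before its start. A match describes letters only and shows no binding.

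States were compared inside each line on the log2(TPM + 1) scale, and a difference of at least 1, 2-fold on that scale, counted as a call. Where 3 levels are listed for a line, they stand in the order parental, PGCC, daughter. In Hey PGCCs compared with parental cells, 2 of the 33 genes were called higher, ERN1 and DDIT3, and 3 lower, ASNS, PSAT1 and PHGDH. Of all 14988 genes, 7.67% were called higher and 5.22% lower, so the 2 and 3 of 33 are of the same order as the background. In SKOV3 PGCCs, 4 were called higher, SDF2L1, CHAC1, TRIB3 and DDIT4, and 1 lower, DNAJB9, against a background of 9.94% higher and 4.96% lower. None of the 33 was called in PGCCs of both lines. The share of all genes called in both was not counted, so this absence is not read as a trait of the 33.

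In Hey daughter cells compared with parental cells, only ASNS was called higher and only DNAJB9 lower among the 33, where 6.31% of all genes were higher and 3.73% lower. In SKOV3 daughter cells 5 were called higher, PDIA4, ASNS, PHGDH, CHAC1 and TRIB3, and 1 lower, CTH, against 15.1% and 6.34% of all genes. PGCCs and daughter cells of a line were compared with the same parental library, so these comparisons share that library. The median difference over the 33 genes was -0.14 in Hey PGCCs (0 over all genes), 0.05 in SKOV3 PGCCs (0.02), -0.07 in Hey daughter cells (0.05) and 0.31 in SKOV3 daughter cells (0.15).

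In all, 12 of the 33 genes were called in at least 1 of these 4 comparisons and 21 in none. The share of all genes called in at least 1 of the 4 was not counted, so 12 of 33 cannot be called many or few. Among the 21, the difference nearest to the threshold was that of CEBPG in SKOV3 PGCCs, at -0.996. Over the 3 states of a line, the median range of the 33 genes was 0.62 in Hey and 0.57 in SKOV3 on the log2 scale, beside 0.65 and 0.82 over all genes. A range of at least 2-fold was reached by 7 of the 33 in Hey (21.2%, all genes 25.9%) and by 11 in SKOV3 (33.3%, all genes 37.7%). Both shares are near those of all genes, so they are not read as a trait of the 33.

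**Figure D1:**
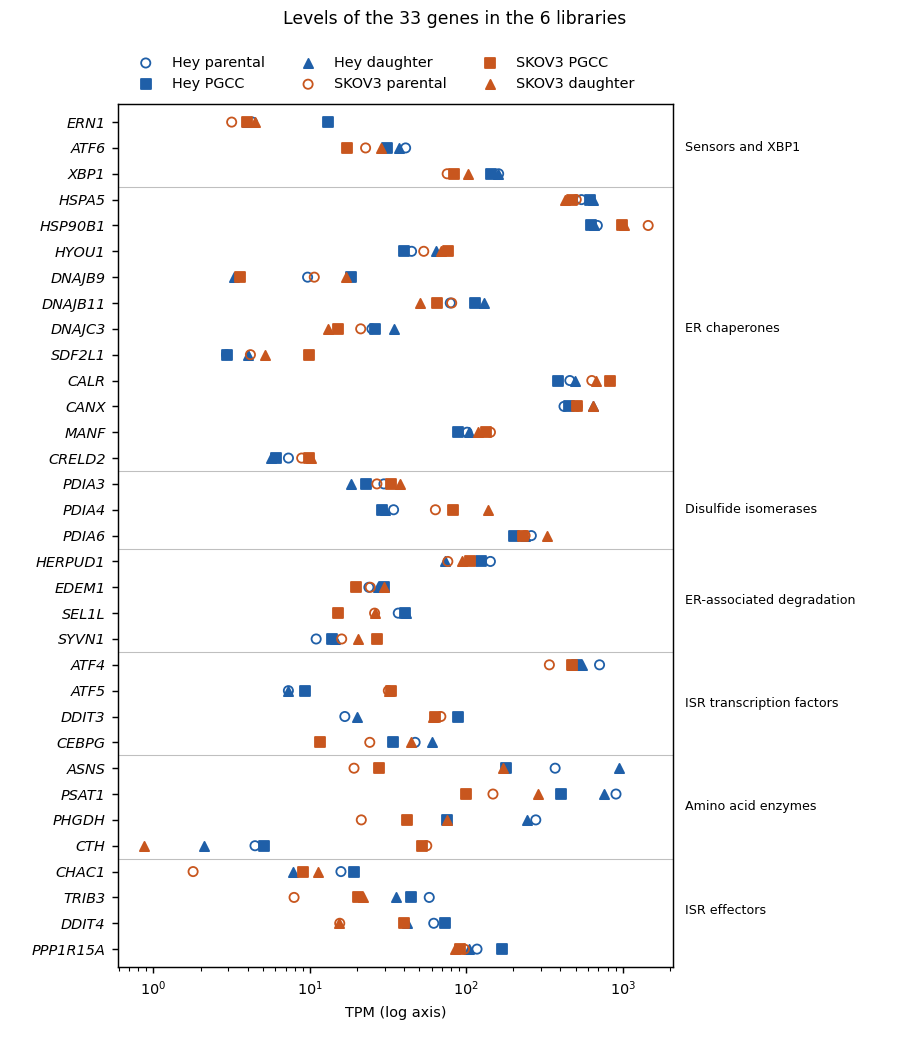
TPM (log axis) of the 33 genes, 1 point per library, with genes grouped by role. The points of most chaperones lie close together, while the amino acid enzymes spread over the widest range, from 9.16-fold for PSAT1 to 64.7-fold for CTH between the lowest and highest library.

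**Figure D2:**
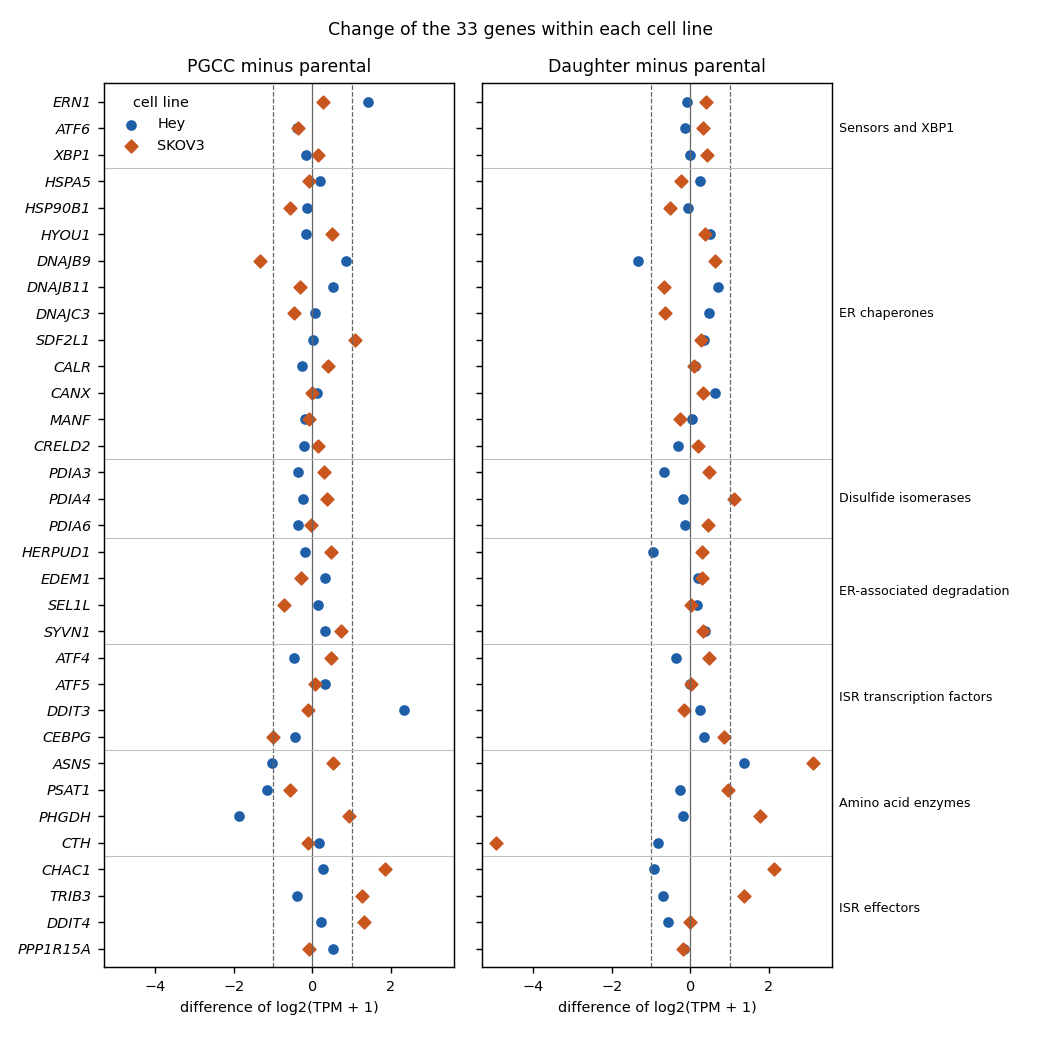
Difference of log2(TPM + 1) of each of the 33 genes, PGCC minus parental (left) and daughter minus parental (right), with Hey as circles and SKOV3 as diamonds. Dashed lines mark 2-fold, and the points beyond them are mostly amino acid enzymes and ISR effectors.

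Of these 3 genes, ERN1 alone was called between states. ERN1 encodes IRE1α, the kinase and ribonuclease of the ER membrane. In Hey it was at 4.29 TPM (parental), 13.1 TPM (PGCC) and 3.98 TPM (daughter), with a PGCC minus parental difference of 1.41. The Hey PGCC library was the only high one of the 6, since SKOV3 held 3.16, 3.99 and 4.46 TPM. ATF6, the membrane-bound factor of the second branch, was at 40.9, 31.2 and 37.0 TPM in Hey and at 22.7, 17.4 and 28.4 TPM in SKOV3, lowest in the PGCCs of each line and within 2-fold of parental cells throughout. XBP1, the target of the IRE1α ribonuclease, was at 161, 145 and 159 TPM in Hey and at 75.5, 84.0 and 102 TPM in SKOV3. TPM values summed per gene do not separate spliced from unspliced XBP1, so they do not report IRE1α activity.

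The PERK gene EIF2AK3, which was not among the 33, was at 5.76, 10.1 and 7.31 TPM in Hey and at 16.6, 10.6 and 13.3 TPM in SKOV3. Its PGCC minus parental differences of 0.71 and -0.60 were both under the threshold.

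Apart from DNAJB9 and SDF2L1, the ER chaperones spanned less than 3-fold between their lowest and highest libraries. HSPA5, whose product BiP holds the sensors inactive, was at 545, 621 and 644 TPM in Hey and at 504, 477 and 426 TPM in SKOV3, a 1.51-fold span over the 6 libraries. The largest chaperone levels were those of HSP90B1, encoding GRP94, with 688, 626 and 658 TPM in Hey and 1455, 987 and 1019 TPM in SKOV3. CALR and CANX, the lectin chaperones calreticulin and calnexin, spanned 2.16-fold and 1.54-fold. HYOU1, a nucleotide exchange factor for BiP, MANF, a secreted ER stress protein, and CRELD2, a disulfide isomerase-like protein, stayed within 1.91-fold, 1.62-fold and 1.82-fold. The co-chaperones DNAJB11 and DNAJC3 were at 79.0 and 24.9 TPM in Hey parental cells and at 129.6 and 34.7 TPM in Hey daughter cells. In SKOV3 they went the other way, from 80.7 and 21.1 TPM to 50.5 and 13.1 TPM, and none of these differences reached 2-fold. The 7 genes with an ERSE match were all within 2-fold of parental cells in both lines, a number too small to read against the 3.73% to 15.1% of all genes called in 1 direction.

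Between states of a line, only DNAJB9 and SDF2L1 among the 11 chaperones were called, and neither exceeded 18.3 TPM in any library. DNAJB9 encodes ERdj4, a BiP co-chaperone and IRE1α repressor. In Hey it was at 9.67 TPM (parental), 18.3 TPM (PGCC) and 3.26 TPM (daughter). The SKOV3 levels were 10.7, 3.6 and 17.1 TPM. The lines ran in opposite directions, with PGCCs highest in Hey and lowest in SKOV3. The difference was 0.86 for PGCCs of Hey and -1.34 for those of SKOV3, and -1.33 and 0.63 in the daughter cells. DNAJB9 had the lowest GC content of the 33 transcripts, 37.3%, and once a lowess trend on GC and length was taken out its SKOV3 PGCC difference was -0.70. SDF2L1, a small ER protein in a complex with BiP, was at 2.93, 2.97 and 4.03 TPM in Hey and at 4.17, 9.87 and 5.18 TPM in SKOV3. Its only call was in SKOV3 PGCCs, at 1.07, which became 0.06 with the same trend removed and 0.92 after quantile normalization.

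Disulfide isomerases, which form and rearrange disulfide bonds, held 1 call. PDIA4 was at 34.3, 29.1 and 30.0 TPM in Hey and at 63.5, 82.5 and 138 TPM in SKOV3, highest in SKOV3 daughter cells with a difference of 1.11. That call did not hold under median-ratio scaling, 0.89, or with the GC and length trend removed, 0.93. PDIA4 lies on chromosome 7, where 11 of the 12 expressed genes within 1 Mb were also above 0 in SKOV3 daughter cells, with a median difference of 0.74 and 5 of 12 at least 2-fold higher. Whether the region had a part in the difference was not tested. PDIA3 and PDIA6 spanned 2.06-fold and 1.62-fold over the 6 libraries. Reads of PDIA3 may be shared with its near-identical copy PDIA3P1, which reached 16.4 TPM where PDIA3 itself was as low as 18.3 TPM, so the level of PDIA3 is uncertain.

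None of the 4 genes of ER-associated degradation was called against parental cells at the main setting. HERPUD1, a membrane scaffold of the degradation complex and the only gene with both ERSE-II and CARE matches, was at 143, 124 and 73.6 TPM in Hey and at 76.2, 106 and 93.7 TPM in SKOV3. Its nearest approach to the threshold was -0.94 in Hey daughter cells. With the GC and length trend removed that difference was -1.04, past the threshold. EDEM1, a lectin that hands glycoproteins to degradation, SEL1L, the adaptor of the ubiquitin ligase, and SYVN1, the ligase HRD1 itself, spanned 1.51-fold, 2.72-fold and 2.45-fold over the 6 libraries. SYVN1 overlaps FAU on the same strand, a gene that reached 1022 TPM, so shared reads are possible for it.

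Among the ISR transcription factors, DDIT3 was called against parental cells in Hey PGCCs alone, and ATF4, ATF5 and CEBPG in no state. ATF4, which is regulated mainly through translation, was at 711, 513 and 548 TPM in Hey and at 339.8, 475 and 472 TPM in SKOV3. Its difference in PGCCs was -0.47 in Hey and 0.48 in SKOV3. DDIT3, the gene for CHOP, was at 16.7, 87.9 and 20.1 TPM in Hey. SKOV3 held 68.8, 63.0 and 61.1 TPM, so all 3 SKOV3 libraries stood between the Hey parental and the Hey PGCC level. The Hey PGCC difference was 2.33, the largest rise among the 33 genes in PGCCs of either line, and the Hey daughter library was back within 2-fold of parental cells.

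DDIT3 overlaps MARS1, encoding methionyl-tRNA synthetase, on the opposite strand. MARS1 was at 172, 93.3 and 196 TPM in Hey, so it was lower in the library in which DDIT3 was higher. Whether the library preparation kept strand is not given in the sources used here. ATF3, a stress-induced factor outside the 33 genes, was at 10.1, 58.8 and 14.9 TPM in Hey and at 69.0, 38.0 and 74.6 TPM in SKOV3, with PGCC differences of 2.43 and -0.85. Within Hey, DDIT3, ATF3 and ERN1 were each highest in the PGCC library, while ATF3 was higher still in SKOV3 parental and daughter cells.

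ATF5, a paralog of ATF4, was at 7.29, 9.28 and 7.23 TPM in Hey and at 31.7, 32.98 and 32.1 TPM in SKOV3, and separated the lines rather than the states. CEBPG, a partner of ATF4 on its target genes, was at 47.1, 34.2 and 60.0 TPM in Hey and at 24.1, 11.6 and 44.1 TPM in SKOV3. CEBPG was lowest in PGCCs and highest in daughter cells of both lines. Its rise from PGCCs to daughter cells was 1.84 in SKOV3, past the threshold, while the Hey value was 0.79.

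Amino acid enzymes held 3 of the 5 calls of Hey PGCCs and none of those of SKOV3 PGCCs. ASNS encodes asparagine synthetase, a well-known ATF4 target. In Hey it was at 369.9 TPM (parental), 179.7 TPM (PGCC) and 954 TPM (daughter). The SKOV3 levels were 19.1, 27.8 and 173 TPM, far below Hey in parental cells. Daughter cells held the highest level in both lines, with a difference from parental cells of 1.36 in Hey and 3.11 in SKOV3. At the main setting ASNS alone among the 33 was called alike in both lines, against parental cells and against PGCCs. The daughter cell calls of ASNS held under each of the scaling, pseudocount and GC alternatives. With the GC and length trend removed, PHGDH too was called alike from PGCCs to daughter cells, at 1.53 in Hey and 1.21 in SKOV3. The share of all genes called alike in both lines was not counted. In Hey PGCCs ASNS was called lower at -1.04, but at -0.93 after quantile normalization and -0.89 with mitochondrial genes left out it was not.

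ASNS lies at chr7:97851677-97872542 in GENCODE 44 (GRCh38), on the minus strand. Of the 7 other expressed genes within 1 Mb, 6 were above 0 in Hey daughter cells, with a median of 1.40 and 4 at least 2-fold higher. In SKOV3 daughter cells 5 of the 7 were above 0, with a median of 0.49 and 1 at least 2-fold higher. ABCB1, the gene of the drug efflux pump P-glycoprotein, lies 10.1 Mb away on the same chromosome. Over the 37 expressed genes between them the median difference was 1.29 in Hey daughter cells, with 25 at least 2-fold higher, and 0.96 in SKOV3 daughter cells, with 18 at least 2-fold higher. The ASNS difference in Hey was thus of the size of its neighbours' median, and that in SKOV3 was larger. This region, like the neighbours of PDIA4, DNAJB9 and CTH, was examined after the values were seen, and its part in the ASNS result was not tested.

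PSAT1 and PHGDH encode consecutive enzymes of serine synthesis. PSAT1 was at 906, 403 and 758 TPM in Hey and at 148, 98.9 and 286 TPM in SKOV3, lowest in PGCCs in each line. It was called lower in Hey PGCCs at -1.17, or -0.98 after quantile normalization, and in SKOV3 PGCCs the value was -0.58. PHGDH was at 278, 75.0 and 246 TPM in Hey, lowest in PGCCs with a difference of -1.88. In SKOV3 it was at 21.3, 41.6 and 75.1 TPM, lowest in parental cells. It was called higher in SKOV3 daughter cells at 1.77, and its SKOV3 PGCC value of 0.93 was just short of the threshold. Hey daughter cells had both genes within 2-fold of parental cells.

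CTH, which makes cysteine from cystathionine, behaved unlike the other enzymes. In Hey it was at 4.46 TPM (parental), 5.12 TPM (PGCC) and 2.1 TPM (daughter). SKOV3 held 55.9, 51.9 and 0.864 TPM, so that the daughter library fell by 4.93 on the log2 scale from a line in which the gene had been 12.5 times the Hey level. It was under 1 TPM in SKOV3 daughter cells, the lowest level of any of the 33 genes in any library. Of the 7 expressed genes within 1 Mb, 2 were at least 2-fold lower in those cells and the median was -0.50, and whether the region took part was not tested.

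Against parental cells, 3 of the 4 ISR effectors were called in SKOV3 and 0 in Hey, a difference between the lines that was not tested. All 3 were called higher in SKOV3 PGCCs, where 9.94% of all genes were, and CHAC1 and TRIB3 again in SKOV3 daughter cells, where 15.1% were. With the GC and length trend taken out, CHAC1 was at -1.06 in Hey daughter cells, past the threshold. CHAC1, which degrades glutathione, was at 15.8, 19.2 and 7.82 TPM in Hey. The SKOV3 levels were 1.79, 8.98 and 11.2 TPM, with differences of 1.84 in PGCCs and 2.13 in daughter cells. TRIB3, a pseudokinase that restrains ATF4 and AKT, was at 58.0, 44.1 and 35.6 TPM in Hey. SKOV3 held 7.92, 20.4 and 21.8 TPM, with differences of 1.27 and 1.35. CHAC1 and TRIB3 were both lowest in SKOV3 parental cells, and their treated SKOV3 levels stayed below the Hey parental level.

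DDIT4, an inhibitor of mTORC1, was at 61.9, 72.7 and 41.6 TPM in Hey. In SKOV3 it was at 15.5, 39.9 and 15.4 TPM, high in PGCCs alone with a difference of 1.31. PPP1R15A encodes GADD34, which ends the response by dephosphorylating eIF2α. It was at 117, 169.8 and 104 TPM in Hey and at 97.3, 91.8 and 84.8 TPM in SKOV3, a 2.001-fold span with no call.

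The SKOV3 PGCC values moved with base composition. Over 13348 genes, the SKOV3 PGCC minus parental difference and transcript GC content had a Spearman correlation of 0.722 across genes, and over the 33 genes one of 0.757. Hey PGCCs gave -0.044 and 0.063. Genes share libraries and are not replicates, so these are descriptions. The median GC content was 60.1% for the 4 ISR effectors, 49.5% for the 33 genes and 47.6% for all genes. With the trend removed, CHAC1 kept a difference of 1.05 in SKOV3 PGCCs, TRIB3 had 0.44 and DDIT4 0.72, and 1 of the 33 genes was called higher in place of 4. What lies behind the relation with GC content was not tested.

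**Figure D3:**
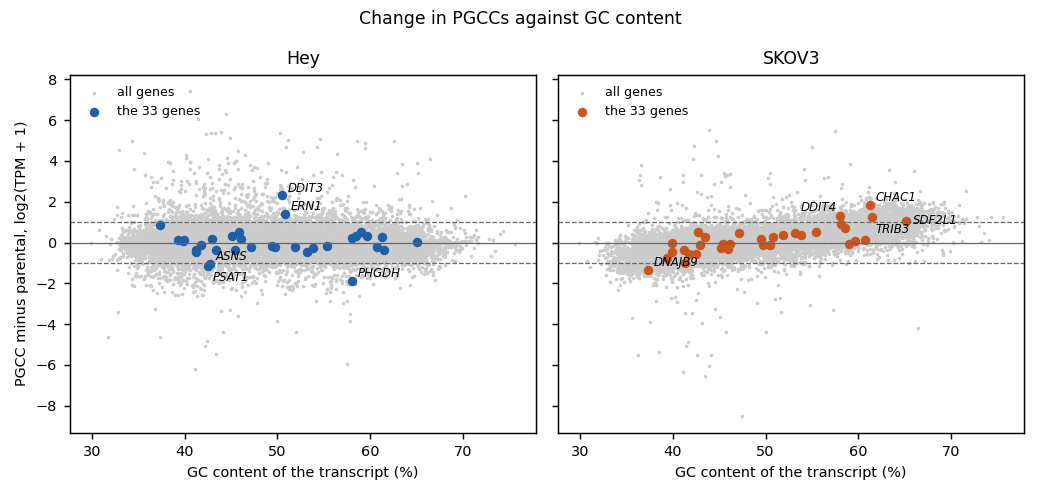
Difference of log2(TPM + 1), PGCC minus parental, against the GC content of the transcript in percent, with the 33 genes in colour over all genes in grey. The Hey points lie near-flat, with a correlation of -0.044, and in SKOV3 the called genes sit at the ends of the slope that all genes follow, DNAJB9 at the low end and SDF2L1, TRIB3, CHAC1 and DDIT4 at the high end.

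**Figure D4:**
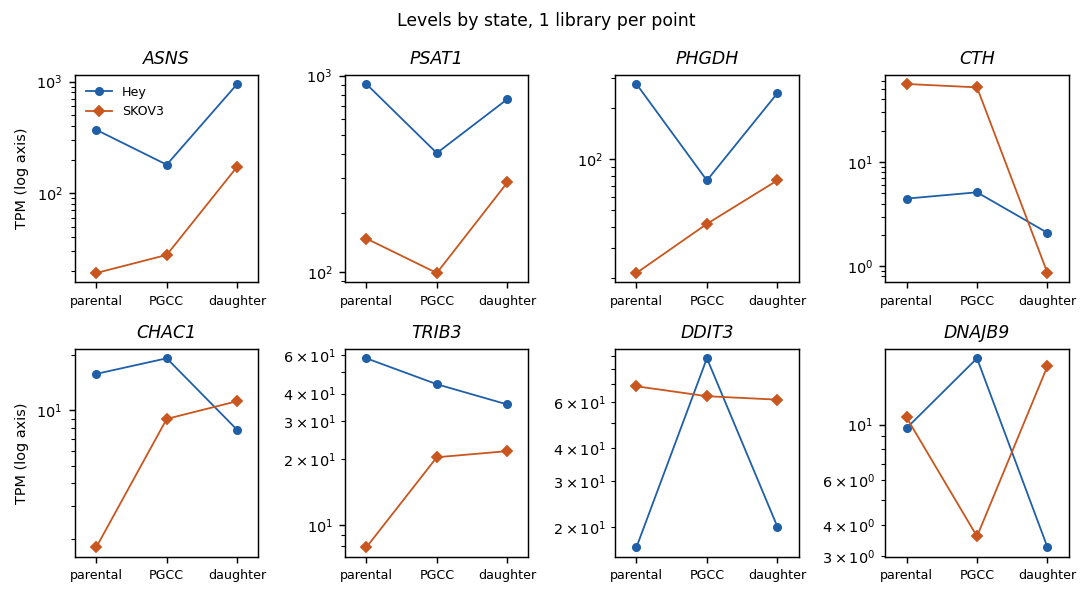
TPM (log axis) of 8 genes in parental cells, PGCCs and daughter cells, 1 library per point, Hey as circles and SKOV3 as diamonds. ASNS ends highest in daughter cells of both lines, PSAT1 dips in PGCCs of both lines, and DNAJB9 runs in opposite directions in the lines.

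The step from PGCCs to daughter cells was compared directly within each line. In Hey, 2 of the 33 genes were called higher, ASNS at 2.40 and PHGDH at 1.70, where 9.95% of all genes were higher. Lower by the same measure were 4, ERN1 at -1.50, DNAJB9 at -2.18, DDIT3 at -2.08 and CHAC1 at -1.20, against 8.13% of all genes. In SKOV3, 4 were called higher, DNAJB9 at 1.97, CEBPG at 1.84, ASNS at 2.59 and PSAT1 at 1.52, against 14.6%. The 2 called lower were CTH at -4.83 and DDIT4 at -1.31, against 9.25%. The SKOV3 step had a Spearman correlation with GC content of -0.456 over 13348 genes and of -0.405 over the 33. Once the GC and length trend was taken out, DDIT4 was at -0.94, DNAJB9 at 1.44, CEBPG at 1.38 and PSAT1 at 1.18. ASNS was then at 2.25 and CTH at -5.14, and PHGDH was called higher too, at 1.21. The median over the 33 genes was 0.06 in Hey and 0.05 in SKOV3, beside 0.03 and 0.12 over all genes.

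Expressed genes within 1 Mb of DNAJB9, on chromosome 7, numbered 11. Their median difference from PGCCs to daughter cells was 1.49 in SKOV3, with 7 at least 2-fold higher, and -0.60 in Hey, with 3 at least 2-fold lower. The gene thus moved in the direction of its neighbours in each line, and the part of the region was not tested.

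A single model over both lines was fitted with limma, with state and cell line as terms, to ask which differences repeated. None of the 33 passed an adjusted p of 0.05 in PGCCs against parental cells, where 0.02% of all genes did. None had an unadjusted limma p under 0.05, where 2.73% of all genes did. In daughter cells against parental cells again 0 passed, with 0.0133% of all genes passing. An unadjusted limma p under 0.05 was held by 3.39% of all genes and by 2 of the 33. They were ASNS, at 2.24 (SE 0.492, limma adjusted p = 1), higher in both lines, and CTH, at -2.87 (SE 0.939, limma adjusted p = 1). Between daughter cells and PGCCs 0 of the 33 and 0% of all genes passed. Here 5.06% of all genes and 5 of the 33 had an unadjusted limma p under 0.05. Of the 5, 3 were higher (ASNS, CEBPG and PSAT1) and 2 lower (CTH and DDIT4). ASNS had the smallest adjusted p of these in limma, 0.811, at a difference of 2.50 (SE 0.492). The fit has 2 residual degrees of freedom, so a p above the threshold does not show that a gene did not differ.

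Across the 33 genes, the Hey and SKOV3 differences had a Pearson correlation of -0.167 for PGCCs minus parental cells, with 12 of the 33 of the same sign in both lines. For daughter minus parental cells it was 0.165, with 13 of the same sign. Both are descriptions across 33 genes that share libraries.

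In parental cells, 4 of the 33 genes were called higher in SKOV3 than in Hey, with 24.2% of all genes higher. Called lower were 8, with 11.5% of all genes lower. The share called higher was below the background and the share called lower above it, which was not tested. Higher in SKOV3 were HSP90B1 at 1.08, ATF5 at 1.98, DDIT3 at 1.98 and CTH at 3.38. The lower genes were ASNS at -4.20, PHGDH at -3.65, TRIB3 at -2.72, PSAT1 at -2.60, CHAC1 at -2.59, DDIT4 at -1.93, XBP1 at -1.08 and ATF4 at -1.06. Of these, 3 of 4 amino acid enzymes and 3 of 4 ISR effectors were lower in SKOV3, and CTH was the exception among the enzymes. Of these calls, HSP90B1 was at 0.76 under median-ratio scaling and 0.63 without the GC and length trend, and XBP1 and ATF4 at -0.98 and -0.96 with mitochondrial genes left out. Under median-ratio scaling, quantile normalization or removal of the GC and length trend, 11 of the 33 were called lower. With mitochondrial genes left out 6 were. The median of the 33 genes was -0.13, beside 0.29 over all genes.

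With the 3 states of each line taken as repeats of the line, 6 of the 33 genes had a limma adjusted p under 0.05 between the lines, where 20.6% of all genes did. States are not replicates of a line, and a share of 6 in 33 is near that background. ASNS was lower in SKOV3 at -3.10 (SE 0.402, limma adjusted p = 0.00274), as were PSAT1 at -2.01 (limma adjusted p = 0.00716), PHGDH at -2.06 (limma adjusted p = 0.0315) and DDIT4 at -1.38 (limma adjusted p = 0.0277). ATF5 was higher at 1.90 (limma adjusted p = 0.00698) and PDIA4 at 1.501 (limma adjusted p = 0.0240). Taking in every gene with a TPM above 0 left 0 of the 33 under 0.05.

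The wider pathways were read from 117 further genes in 8 lists. In Hey PGCCs, 7 of the 117 were called higher and 6 lower, where 7.67% and 5.22% of all genes were. In SKOV3 PGCCs 10 were higher and 5 lower, where 9.94% and 4.96% of all genes were. In daughter cells 1 was higher and 4 lower in Hey, and 16 were higher and 4 lower in SKOV3, so these counts too lie near or below the background. Values of the 117 genes are given without removal of the GC and length trend. Over 13348 genes the SKOV3 PGCC difference had a Spearman correlation of 0.722 with GC content. Called alike in PGCCs of both lines was MTHFD2, a mitochondrial enzyme of one-carbon metabolism. It was at -1.02 in Hey, close to the threshold, and at -1.40 in SKOV3. In daughter cells CLGN, a relative of calnexin, was lower in both lines at -1.03 and -1.76, and so was VEGFA, an angiogenic factor, at -1.36 and -1.005. From PGCCs to daughter cells ALDH1L2, a mitochondrial folate enzyme, was higher in both at 1.30 and 1.06. Its SKOV3 levels were low, at 0.523, 0.318 and 1.74 TPM.

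In Hey PGCCs all 12 aminoacyl-tRNA synthetases, which load amino acids onto tRNA, were below their parental level, with a median of -0.54 and 0 called. Of 10 genes of serine, proline and one-carbon metabolism, 5 were called lower, where 5.22% of all genes were, with a list median of -0.97, namely MTHFD2, SHMT1, SHMT2, MTHFD1L and GPT2. Amino acid transporters had a median of -0.51, with 7 of 9 below 0 and SLC1A4 called lower. Other ISR factors and effectors had a median of 0.70 over 17 genes. Of these, 4 were called higher, where 7.67% of all genes were, namely ATF3, GDF15 at 3.41, GADD45A at 1.71 and STC2 at 1.06. Genes of these lists other than MTHFD2, CLGN, VEGFA, ATF3 and EIF2AK3, ALDH1L2 included, were named after their values were seen.

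The same lists in SKOV3 PGCCs had medians of 0.13 for the synthetases, 0.10 for serine, proline and one-carbon genes, 0.50 for transporters and 0.55 for other ISR genes. Called there were 3 transporters higher (SLC7A5, SLC6A9 and SLC1A5), PYCR1 and GPT2 higher and MTHFD2 lower, AARS1 higher and NUPR1 higher. Of all genes, 9.94% were called higher in SKOV3 PGCCs and 4.96% lower. In SKOV3 daughter cells 5 of 9 transporters were called higher, where 15.1% of all genes were, with a list median of 1.05. The 5 were SLC7A5, SLC38A2, SLC6A9, SLC1A5 and SLC43A1. Of these, SLC6A9 and SLC43A1 were low, at 0.859 and 0.384 TPM in SKOV3 parental cells and 3.09 and 1.86 TPM in SKOV3 daughter cells. Synthetases had a median of 0.52 there, with AARS1 and GARS1 called higher. In parental cells 10 of the 12 synthetases were called lower in SKOV3 than in Hey, where 11.5% of all genes were, with a median of -1.46. ASNS, PSAT1 and PHGDH were also lower in SKOV3, and a link between them and the synthetases was not tested.

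Other folding and redox genes (20 genes) had medians of -0.09 for Hey PGCCs and -0.52 for SKOV3 PGCCs, with 0 called in Hey and SERP1 called lower in SKOV3. Other degradation genes (16 genes) had medians of 0.04 and 0.08, with SELENOS called higher in Hey and 0 called in SKOV3. Genes of translocation and export (20 genes) had medians of 0.22 and -0.40, with SEC61B and SSR4 called higher in Hey and SPCS3 and SRP9 lower in SKOV3. Other sensors and regulators (13 genes) had medians of -0.02 and -0.27, with 0 called in Hey and, in SKOV3, ATF6B, TRAF2 and WFS1 higher and UFM1 lower.

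**Figure D5:**
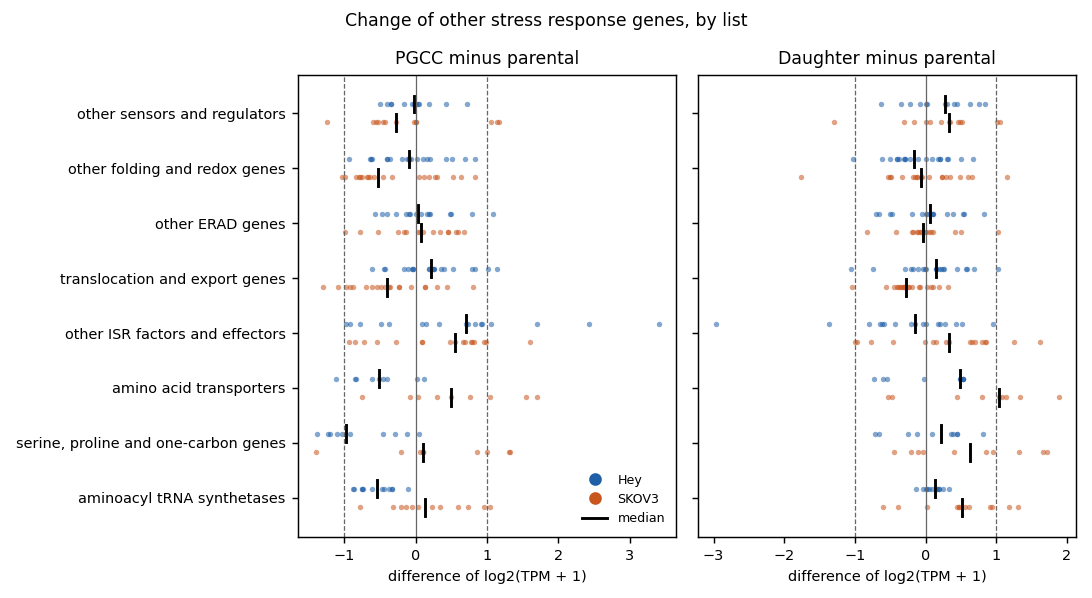
Difference of log2(TPM + 1) of the 117 further genes by list, PGCC minus parental (left) and daughter minus parental (right), 1 point per gene, with Hey in blue, SKOV3 in orange and the list median as a black bar. In Hey PGCCs the 12 synthetases all lie left of 0, and in SKOV3 daughter cells the transporter median lies at 1.05.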

How the data were processed

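The authors trimmed reads with fastp and quantified them with Salmon 0.14.1 on hg38, per the submitters' processing notes, and deposited TPM values per gene symbol for 6 libraries, 1 per condition. The annotation release, strand setting and summing of transcripts to genes are not given in the sources used here. TPM keeps no read depth, so no counting error can be given. TPM columns summed to between 911825 and 920497.

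The 33 genes and all lists were chosen with earlier results of these data known. Levels were compared as log2(TPM + 1) and called at a difference of 1, without a test. The background was every gene averaging 1 TPM or more. limma 3.58.1 (R 4.3.3) was fitted to those genes with state and cell line, eBayes with trend and Benjamini-Hochberg adjustment, as a second approach. Every limma p-value rests on the disagreement between the 2 lines. GC content and length came from the canonical transcripts of GENCODE 44, and promoters from RefSeq (GRCh38.p14). The lowess trend used a fraction of 0.3 and 2 passes. By rule, values per library were to be given for each gene called in PGCCs or daughter cells, the sensors, HSPA5 and ATF4, other genes by range. Outside that rule they are also given for HSP90B1, HERPUD1, ATF5, CEBPG and PPP1R15A, and in part for DNAJB11 and DNAJC3. The rule for further genes was a call in the same direction against parental cells in both lines, plus EIF2AK3 and ATF3. Other names among the further genes are stated as chosen after their values were seen. Python 3.11.15 did the rest. The code was tested on simulated data.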

Additional observations from a re-analysis of the deposited data

Results flagged for a closer look

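DNAJB9, the ERdj4 co-chaperone, moved in opposite directions from PGCCs to daughter cells in the lines, by -2.18 in Hey and 1.97 in SKOV3 on the log2(TPM + 1) scale. With 1 library per condition the difference between the lines was not tested. Both values kept their direction and stayed past 2-fold under each scaling, pseudocount and GC alternative.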

How the results depend on the processing

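The limma model pairs the states by cell line, and without that term 0 of the 33 genes passed between states, as with it. Of 42 called differences of the 33 genes, 31 stayed past 2-fold under each alternative and 11 did not under at least 1; no direction reversed. Scaling moved the median of all genes by over 0.1 in SKOV3 daughter cells against parental cells (-0.16, median-ratio) and PGCCs (-0.12), and between the parental lines (-0.28); leaving out mitochondrial genes moved it by 0.11 in Hey PGCCs and, opposite to the scaling, by 0.107 in SKOV3 daughter cells against PGCCs. TPM gives no depth, and without replicates no fold has an error.

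Counts of genes called moved as follows. In Hey PGCCs 1 gene was lower after quantile normalization. In SKOV3 PGCCs 2 were lower with a pseudocount of 0.1, median-ratio scaling, quantile normalization or mitochondrial genes left out, and 3 at 1.5-fold; with the GC and length trend removed 1 was higher and 0 lower. In Hey daughter cells 3 were lower with a pseudocount of 0.1, median-ratio scaling or the trend removed; at 1.5-fold 3 were higher and 6 lower. In SKOV3 daughter cells at 1.5-fold 8 were higher and 3 lower. From PGCCs to daughter cells at 1.5-fold, 5 were higher and 8 lower in Hey and 8 higher in SKOV3, where 1 was lower with the trend removed. The median over the 33 genes became 0.10 (median-ratio) and 0.054 (trend removed) in SKOV3 daughter cells, and -0.45 and -0.51 between the parental lines. In limma 0 of the 33 differed between the lines when all genes with a TPM above 0 were tested. The cause of these moves was not tested.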
